A study of Mus musculus with 12 samples.

Results

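Them6 is 1 of 19057 genes named on the array and was measured by 3 of its 45281 probes, each of which carries Them6 as its single gene symbol in the platform annotation. The probes are ILMN_3065373, ILMN_3143304 and ILMN_2704496, here called the brightest, the middle and the dimmest Them6 probe after their mean signal. All 3 are annotated to the same transcript, NM_198607, the single RefSeq transcript of the gene in the reference gene table (assembly GRCm38.p6). Where on that transcript each probe binds was not analysed here. All 3 had a detection p under 0.01 on all 12 arrays, and all 3 were among the 20296 probes tested. The gene was chosen because its probes agreed in sign between ethanol-exposed and control samples, so that this difference is described here without a test.

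The ethanol-exposed group held 6 samples of caudate putamen, the dorsal striatum, from C57BL/6J males aged 12 weeks, whose mothers had drunk ethanol at 10% (v/v) of their own accord from day 0.5 to day 8.5 post-coitum. The control group held 6 samples of the same tissue, strain, sex and age, labelled Control. Each of 2 array chips carried 3 samples of each group, here called chip 1 and chip 2, and the replicate number of each sample comes from its title. Whether samples came from separate mice or litters is not stated, nor is the amount of ethanol each mother took in. Errors and p-values thus cover the variation among these 12 samples and no more.

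Them6 encodes thioesterase superfamily member 6, a protein of the hotdog-fold family. This family includes some, but not all, of the acyl-CoA thioesterases. Such enzymes split fatty acyl-coenzyme A into a free fatty acid and coenzyme A, and so act against the acyl-CoA synthetases that activate fatty acids. The human protein THEM6 has been placed at the membrane of the endoplasmic reticulum, where in prostate cancer cells it has been tied to ether lipid levels and to induction of the stress factor ATF4.

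The arrays detected between 19452 and 21949 probes, and the raw median intensity lay between 136.1 and 153.2. Of the striatal projection neuron markers 10 of 12 were tested, among them the dopamine receptors Drd1 and Drd2, and each of the 10 was detected on 12 arrays. Ethanol 3, ethanol 4 and control 4 stood apart in markers of other cells. The mean log2 intensity of 7 thalamus markers was 8.30 in ethanol 3 and 8.43 in ethanol 4, while the highest control had 7.60. That of 8 oligodendrocyte markers was 12.96 in ethanol 3 and 11.63 in ethanol 4, against 12.96 in control 4 and 12.17 to 12.40 in the other controls. Results on Them6 are therefore also given without these arrays.

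The brightest Them6 probe had lower values in ethanol-exposed samples than in controls on both chips. Its normalized log2 intensity on chip 1 was 12.26, 12.39 and 12.38 in ethanol 1 to 3, against 12.41, 12.58 and 12.54 in control 1 to 3. On chip 2 it was 12.11, 12.16 and 12.32 in ethanol 4 to 6, against 12.70, 12.67 and 12.80 in control 4 to 6. The groups did not overlap, but they nearly touched, since the highest ethanol-exposed sample, ethanol 2, and the lowest control, control 1, differed by −0.0227. When arrays were scaled to a common median instead, the groups overlapped. Of all 20296 tested probes, 54 (0.266%) had groups that did not overlap, and in 22 (0.108%) the ethanol-exposed samples were the lower ones. Since the gene was chosen on this contrast, nothing is read from the place of Them6 among them.

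The group mean of the brightest probe was 12.27 ± 0.11 in ethanol-exposed samples and 12.62 ± 0.13 in controls (SD, n = 6 each). The log2 difference, ethanol minus control, was −0.35 (SE 0.08), a level in ethanol-exposed samples that is 78.6% of the control level. In units of the SD within groups it was −2.78. Before normalization its raw intensity ran from 4222.6 to 5647.3 with a median of 5126 in ethanol-exposed samples, and from 5111.4 to 7609.6 with a median of 6346 in controls. These raw values overlapped, since control 1 had a lower raw intensity than 3 of the ethanol-exposed samples.

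The middle Them6 probe ran the same way. On chip 1 its log2 intensity was 8.47, 8.88 and 8.74 in ethanol 1 to 3, against 8.85, 9.00 and 8.88 in control 1 to 3. On chip 2 it was 8.56, 8.43 and 8.72 in ethanol 4 to 6, against 9.01, 9.12 and 9.49 in control 4 to 6. The groups overlapped through ethanol 2, which lay above control 1 by 0.0282, and the other 5 ethanol-exposed samples lay below every control. The means were 8.63 ± 0.18 in ethanol-exposed samples and 9.06 ± 0.23 in controls (SD, n = 6 each), with a log2 difference of −0.43 (SE 0.11).

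The dimmest Them6 probe was the least precise. Its log2 intensity on chip 1 was 6.33, 7.00 and 6.42 in ethanol 1 to 3, against 6.78, 7.10 and 6.65 in control 1 to 3. On chip 2 it was 6.16, 6.73 and 6.80 in ethanol 4 to 6, against 6.73, 7.21 and 7.44 in control 4 to 6. Here the groups overlapped on both chips, and only 3 ethanol-exposed samples lay below every control. The means were 6.57 ± 0.32 in ethanol-exposed samples and 6.99 ± 0.31 in controls (SD, n = 6 each), and the log2 difference was −0.41 (SE 0.16).

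**Figure D1:**
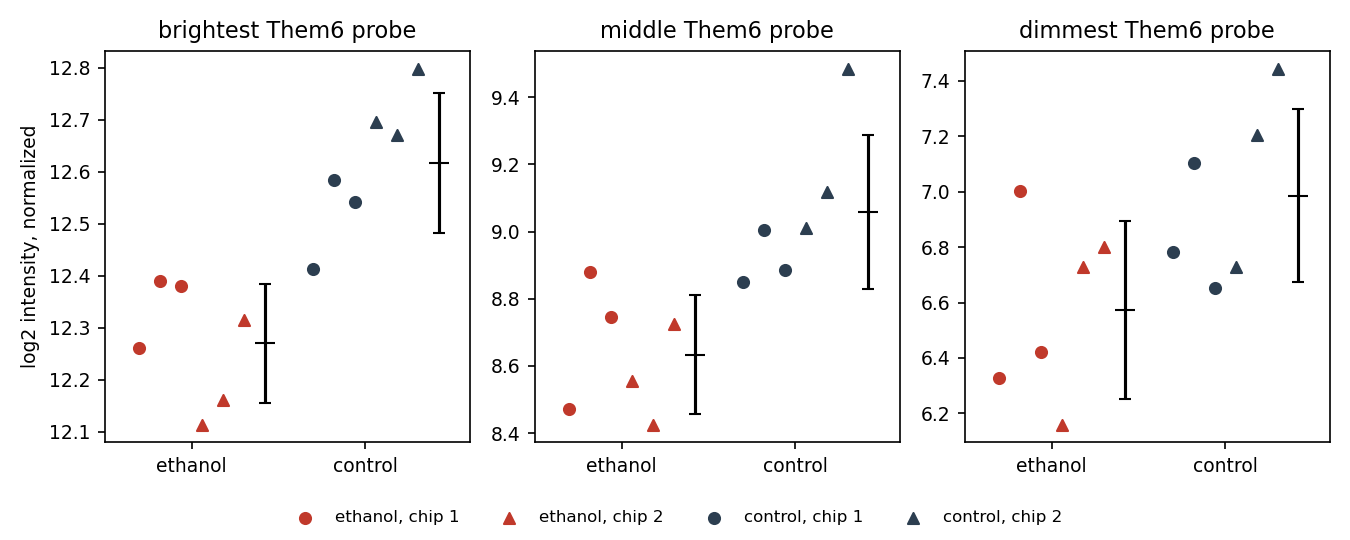
Normalized log2 intensity of the 3 Them6 probes in each sample, with ethanol-exposed samples left of controls, circles for chip 1 and triangles for chip 2, and the group mean with its SD as a bar beside the points. The groups are apart for the brightest probe and overlap for the middle and the dimmest, and each vertical axis has its own range and does not start at 0.

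Some samples kept their place across probes. Control 6 was the highest of the 12 samples on all 3 probes. Ethanol 4 was the lowest on the brightest and the dimmest probe, and ethanol 5 was the lowest on the middle one. Ethanol 2 was the highest ethanol-exposed sample on each probe, and control 1 the lowest control on the brightest and the middle probe. The SD within groups was 0.12 for the brightest, 0.21 for the middle and 0.32 for the dimmest probe. Of all tested probes, 15.9%, 51.9% and 86.1% had a smaller SD, in the same order of probes.

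The size of the decrease was alike among the probes after background correction, and less so in the intensities as deposited. After background correction, ethanol-exposed samples were lower by 21.4% on the brightest, 25.5% on the middle and 24.9% on the dimmest probe. As ratios of mean raw intensity, they stood at 78.7%, 78.6% and 86.5% of controls for the brightest, middle and dimmest probe. In the authors' normalized table the same ratios were 78.9%, 78.6% and 86.8%. The raw intensity of the dimmest probe, 182.2 to 272.3 over all samples, was nearer to the array medians than that of the other 2 probes, and without background correction its log2 difference was −0.19.

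The decrease was larger on chip 2 than on chip 1 for each probe. The brightest probe differed by −0.53 (SE 0.12) on chip 2 and by −0.17 (SE 0.11) on chip 1, as log2 ethanol minus control. For the middle probe the differences were −0.64 (SE 0.16) on chip 2 and −0.22 (SE 0.13) on chip 1. For the dimmest they were −0.56 (SE 0.23) on chip 2 and −0.26 (SE 0.20) on chip 1. In signal, the brightest probe was 30.5% lower in ethanol-exposed samples on chip 2 and 11.1% lower on chip 1. The difference between the chips was −0.36 (SE 0.14), −0.42 (SE 0.21) and −0.30 (SE 0.33) for the brightest, middle and dimmest probe. It was not tested, because the values on each chip took part in the choice of the gene. Single samples weigh on these values. Without ethanol 1 the chip 1 differences were −0.13, −0.10 and −0.13, and that of the dimmest probe was −0.47 without ethanol 2, while on chip 2 the dimmest probe differed by −0.36 without ethanol 4. With median scaling the brightest probe's difference was −0.63 on chip 2, and −0.10 on chip 1. Both groups had other means on chip 2. On the brightest probe the ethanol-exposed mean was 12.20 ± 0.11 on chip 2 and 12.34 ± 0.07 on chip 1, while the control mean was 12.72 ± 0.07 on chip 2 and 12.51 ± 0.09 on chip 1 (SD, n = 3 each).

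**Figure D2:**
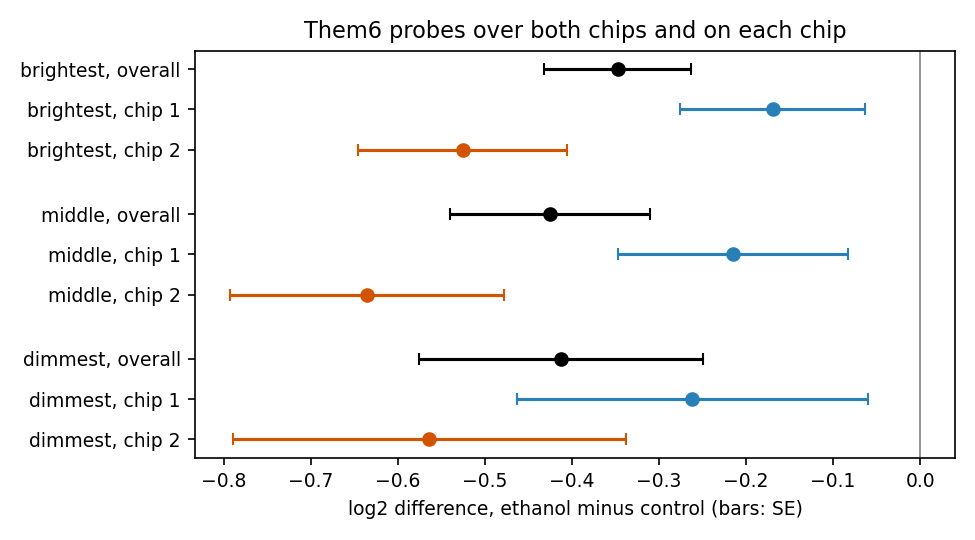
Log2 difference, ethanol minus control, of each Them6 probe over both chips and on each chip, with the standard error as a bar. All 9 differences are below 0, and on each probe the chip 2 difference, between −0.64 and −0.53, lies further from 0 than the chip 1 difference, between −0.26 and −0.17.

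With 3 samples of each group on a chip, groups that do not overlap are common. On chip 2 the brightest and the middle probe had every ethanol-exposed sample below every control, as had 7.81% of all tested probes. On chip 1 only the brightest Them6 probe did, as had 6.42% of all tested probes. Nothing is read from these counts.

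The chips themselves were compared over both groups, a contrast balanced against the one that chose the gene. It asked whether the level of Them6, averaged over the groups, depended on the chip. No Them6 probe passed in limma's test with group as a covariate. On each probe the ethanol-exposed mean was lower and the control mean higher on chip 2 than on chip 1. Such opposite shifts offset each other in this average, so it does not show that the level was alike on both chips within a group. The log2 difference, chip 2 minus chip 1, was 0.03 for the brightest probe, with a 95% interval from −0.15 to 0.22 and an adjusted p of 0.941 in limma. It was 0.08 for the middle probe (−0.17 to 0.33, adjusted p = 0.864 in limma) and 0.13 for the dimmest (−0.23 to 0.49, adjusted p = 0.843 in limma). Of all tested probes 2 (0.00985%) passed this comparison in limma's test, and 2016 (9.93%) had an unadjusted p under 0.05.

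Over the whole array, 0 of 20296 probes (0%) passed an adjusted p of 0.05 between the groups in limma's test, and the smallest adjusted p was 0.845. An unadjusted p under 0.05 was found for 1175 probes (5.79%), of which 587 (2.89% of all tested) had lower values in ethanol-exposed samples. By sign alone 10117 tested probes (49.8%) were lower. The median difference over all tested probes was 0.00037. Without ethanol 3 and ethanol 4 the Them6 differences were −0.34, −0.43 and −0.27 for the brightest, middle and dimmest probe. Without control 4 as well they were −0.32, −0.44 and −0.32.

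A further question was how often several probes of a gene agree on this array. Of 1025 genes with exactly 3 tested probes, 239 (23.3%) had all 3 lower in ethanol-exposed samples and 168 (16.4%) had all 3 higher, so that 3 probes of equal sign were common. In 3 of these genes (0.293%) each of the 3 probes was at least as low as the Them6 probe with the smallest decrease (−0.347). They were Them6, Ciart and Ip6k2, and the last 2 are named after their values were seen. Ciart, a repressor of the circadian clock, differed by −0.93 to −0.82 and Ip6k2, an inositol hexakisphosphate kinase, by −0.46 to −0.39. Them6 belongs to this count by the way it was chosen.

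Whether the 3 probes vary together was asked inside the groups. Deviations from the group means still hold each group's shift between the chips. These shifts carry the gap between the chips in ethanol minus control, and the differences on each chip took part in choosing the gene. The values with chip means also removed are thus the ones independent of that choice. Each sample's deviation from its group mean was compared between probes, with a two-sided permutation of 100000 resamples within groups and adjustment over the 3 pairs. With chip means also removed, the permutation ran within each group on each chip. The brightest and the middle probe then deviated together, with Pearson's r at 0.78 (adjusted permutation p = 0.0325, n = 12). It was 0.80 on chip 1 and 0.76 on chip 2. With chip means left in, r was 0.84 (permutation p = 0.00198, adjusted 0.00594) and Spearman's rho 0.90 (permutation p = 0.0005, adjusted 0.0015). Without ethanol 4 and control 1, the samples farthest from the median, this r was 0.91. Nothing is read from the p-values with chip means left in, here or for the other pairs.

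With chip means removed, neither pair with the dimmest probe passed. With chip means left in, the r of the dimmest with the middle probe was 0.71 (permutation p = 0.0121, adjusted 0.0181, n = 12). Their rho was 0.62 (permutation p = 0.0488, adjusted 0.0583). That relation rested on ethanol 2 and control 6, without which r was 0.39, and with chip means removed r was 0.69 (adjusted permutation p = 0.0616). The r of the dimmest with the brightest probe was 0.59 (permutation p = 0.0579, adjusted 0.0579, n = 12). Their rho was 0.59 (permutation p = 0.0583, adjusted 0.0583), and this pair did not pass. Without ethanol 4 and control 1 it was 0.44, and with chip means removed 0.62 (adjusted permutation p = 0.0616). Within chips r lay between 0.55 and 0.83 for these 2 pairs. Over 3075 probe pairs of the genes with 3 tested probes, the same r had a median of 0.27, with 0.73 as the 90th percentile.

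**Figure D3:**
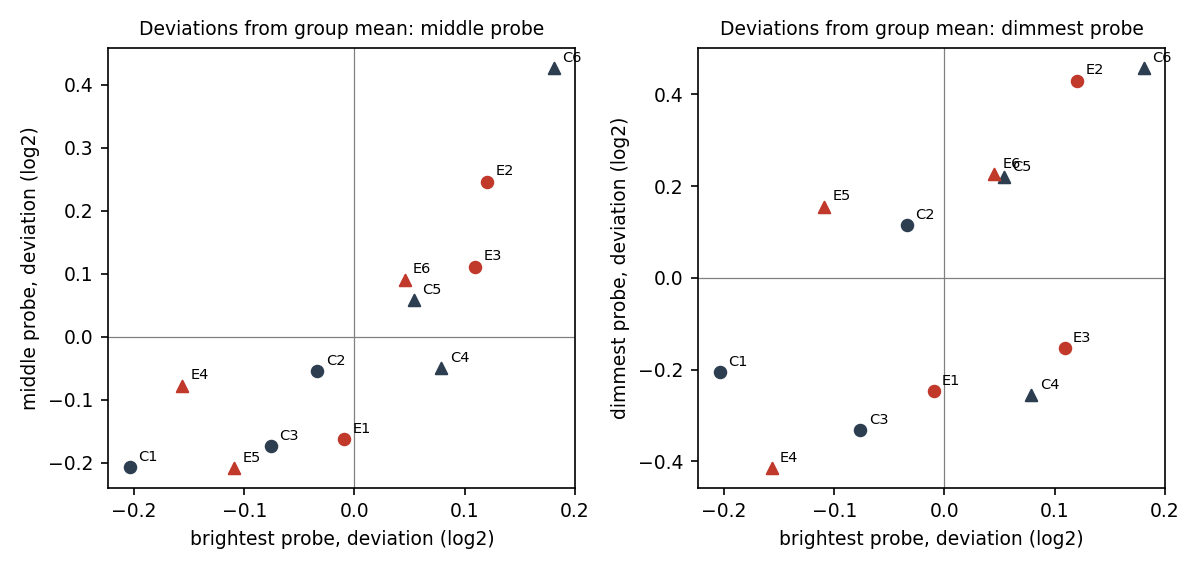
Deviation of each sample from its group mean, in log2 units, on the brightest Them6 probe against the middle probe (left) and the dimmest probe (right). E marks ethanol-exposed samples and C controls with their replicate number, and circles are chip 1 and triangles chip 2. The points rise together on the left (r = 0.84) and scatter more on the right (r = 0.59).

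The probes of other genes whose deviations were most like those of the brightest Them6 probe were looked up among 17184 singly named tested probes, as a description over 12 samples of shared arrays. Among all tested probes the middle Them6 probe ranked 27 by this r and the dimmest 1118. The highest r belonged to Elk4, an ETS transcription factor, at 0.90. It was followed by Ebpl, related to a sterol isomerase, at 0.90, Trim32, a ubiquitin ligase, at 0.89, Gm9925 at 0.89 and 1190007I07Rik at 0.88. Ebpl and Trim32 each had 1 other tested probe, which is not described here. Elk4 also had lower values in ethanol-exposed samples, 8.33 against 8.63 in controls (log2 difference −0.30, SE 0.10), and did not pass in limma's test (adjusted p = 0.845). The other 4 differed by between −0.11 and 0.10.

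The most opposite was the dimmer of 2 tested Lypd1 probes, at r = −0.93, and the brighter one is not described here. Lypd1 encodes a membrane-anchored modulator of nicotinic receptors. The dimmer probe was at 6.38 in ethanol-exposed samples and 5.35 in controls (log2 difference 1.03, SE 0.22, adjusted p = 0.845 in limma), and it was detected on 9 arrays. Next came Mdn1, a ribosome assembly factor, at −0.91, Papola, a poly(A) polymerase, at −0.91, Pgam5, a mitochondrial phosphatase, at −0.89, and Ntng1, an axonal adhesion protein, at −0.89. Ntng1 had 2 other tested probes, which are not described here. Large values of r were frequent over these 12 samples, as 10.2% of the probes compared had r of at least 0.5 and 9.88% had r of −0.5 or less. These deviations still hold the difference between the chips. With chip means also removed, r lay between 0.73 and 0.89 for the 5 highest and between −0.91 and −0.70 for the 5 lowest. The low values also depended on the scaling. With median scaling r was −0.16 for Mdn1, −0.50 for Papola and −0.40 for Pgam5.

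Other genes that act on fatty acyl-CoA, and genes tied to THEM6 in human cells, were examined in 4 lists, and none passed in limma's test. Of 22 acyl-CoA thioesterase genes, 14 besides Them6 were tested, of which 10 had higher and 4 lower values in ethanol-exposed samples. Their median log2 difference was 0.06, beside 0.00037 over all tested probes, and 0 passed (1 at an unadjusted p under 0.05 in limma, beside 5.79% of all tested probes). The members with the smallest p were Ppt2, a lysosomal thioesterase (−0.31, SE 0.11), Acot2, a mitochondrial thioesterase (0.23, SE 0.14), and Them4, of the same superfamily (0.13, SE 0.10). The other tested probe of Ppt2 had the same sign, but of the 2 others of Acot2 only 1 had. Ppt2 had a log2 intensity of 5.57 ± 0.15 in ethanol-exposed samples and 5.88 ± 0.23 in controls (SD, n = 6 each), its groups overlapped, and without background correction its difference was −0.10. Acot7, the main cytosolic thioesterase of brain, named after its values were seen, was at 13.24 ± 0.19 in ethanol-exposed samples and 13.14 ± 0.08 in controls, with its 3 other probes of the same sign.

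Of the acyl-CoA synthetases, which make the substrate of thioesterases, 13 of 22 were tested, with 7 higher and 6 lower in ethanol-exposed samples and a median of 0.02. None passed in limma's test, and 2 had an unadjusted p under 0.05, beside 5.79% of all tested probes. These were Slc27a3 (0.50, SE 0.18) and Slc27a2 (0.38, SE 0.14), fatty acid transport proteins with synthetase activity, and the next smallest p belonged to their relative Slc27a4 (0.13, SE 0.14). Slc27a3 was at 6.28 ± 0.26 in ethanol-exposed samples and 5.78 ± 0.41 in controls, and its difference without background correction was 0.17.

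Ether lipid synthesis begins in the peroxisome. The list for that pathway and for protein import into the peroxisome also held enzymes of lipid breakdown, such as Pla2g6 and Tmem86b. Of its 13 genes 11 were tested. Of these 6 had higher and 5 lower values, with a median of 0.03, and 0 passed in limma's test (0 at an unadjusted p under 0.05). Far1, a reductase that supplies fatty alcohol, differed by −0.16 (SE 0.10), but its other tested probe had the opposite sign. Gnpat, the first acyltransferase of the pathway, differed by −0.09 (SE 0.08). The import receptor Pex5 differed by 0.07 (SE 0.11), with its 2 other tested probes of the same sign. All differences in this list lay between −0.16 and 0.07.

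Of 22 genes of endoplasmic reticulum stress and of ATF4, 19 were tested, with 9 higher and 10 lower and a median of −0.04. None passed in limma's test, and 1 had an unadjusted p under 0.05, beside 5.79% of all tested probes. That was Trib3, a pseudokinase induced by ATF4, at 7.05 ± 0.48 in ethanol-exposed samples and 6.37 ± 0.27 in controls (SD, n = 6 each), a difference of 0.68 (SE 0.19). Hspa5, the main chaperone of the compartment, differed by −0.20 (SE 0.11) on a dim probe, at 5.28 in ethanol-exposed samples and 5.48 in controls, and Sesn2, a stress-induced sestrin, by −0.28 (SE 0.18). Without background correction the differences were 0.32 for Trib3, −0.06 for Hspa5 and −0.08 for Sesn2. Atf4 itself differed by 0.07 (SE 0.12).

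**Figure D4:**
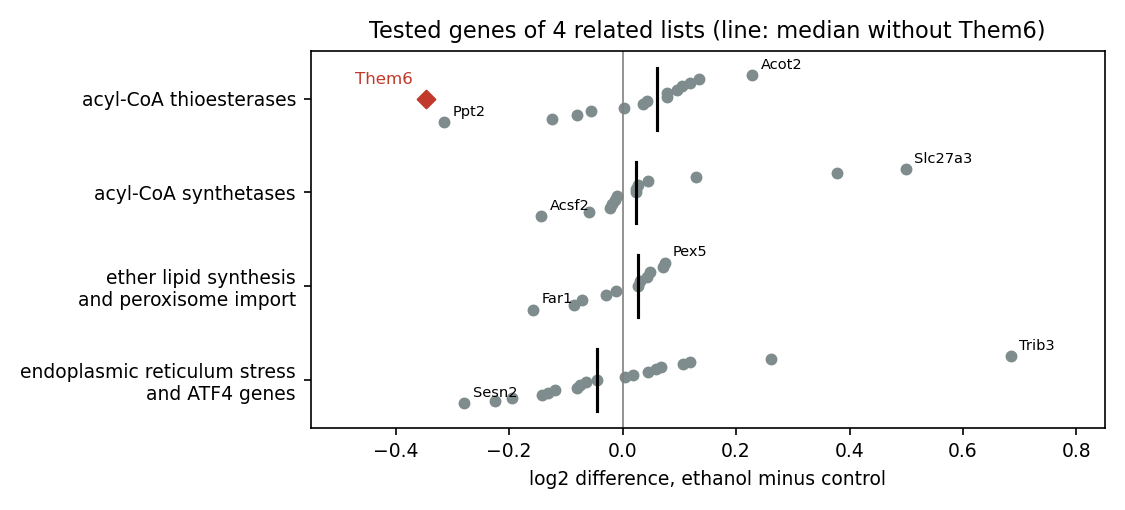
Log2 difference, ethanol minus control, of each tested gene of 4 lists related to Them6, on the brightest tested probe of the gene, with the list median without Them6 as a black line and the ends of each list named. Them6, chosen on this difference, stands at −0.35, and the medians lie between −0.04 and 0.06.

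The genes next to Them6 in the order of the reference gene table were examined as well. Of the 10 on either side, 11 of 20 had a probe on the array and 6 were tested, of which 2 had higher and 4 lower values and 0 passed in limma's test (adjusted p between 0.968 and 1). The nearest, Psca, a surface antigen, differed by −0.0011 (SE 0.17). Lynx1, which binds nicotinic receptors, differed by −0.06 (SE 0.10), and Arc, an activity-induced synaptic gene, by 0.22 (SE 0.48). Arc varied most among them, at 9.55 ± 0.70 in ethanol-exposed samples and 9.33 ± 1.22 in controls (SD, n = 6 each), and its difference ran from −0.0097 without control 3 to 0.52 without control 1. Without ethanol 3 and ethanol 4 the differences were 0.58 for Arc, 0.21 for Psca and 0.10 for Jrk. The remaining tested neighbours were Adgrb1 (0.03, SE 0.13), Jrk (−0.11, SE 0.18) and 4933427E11Rik (−0.07, SE 0.14). Jrk and 4933427E11Rik had dim probes detected on 7 arrays each, and without background correction they differed by −0.03 and −0.02. Lynx1 lies on the far side of Them6 from Psca, and on that side no probe of Slurp1, Lypd2, Slurp2, Ly6d or Ly6k was detected on any array.

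Levels of 10 lists of cell type markers were set beside the brightest Them6 probe, since tissue pieces can differ in the cells they hold, and fewer cells of a type and less RNA per cell cannot be told apart in such samples. Over the 12 samples oligodendrocyte markers had the highest r and rho. In 7 of 8 tested oligodendrocyte markers the mean was lower in ethanol-exposed samples, and their mean level was 12.29 ± 0.43 in ethanol-exposed samples (11.63 to 12.96) and 12.41 ± 0.29 in controls (12.17 to 12.96). The 11.63 was that of ethanol 4, and the other ethanol-exposed samples ran from 12.21 to 12.96, about the range of controls. The markers were measured in the same samples, so their count does not stand for separate observations. All 8 markers, among them the myelin genes Mbp, Mog and Mag, were detected on 12 arrays. Over deviations from group means the list and Them6 had r = 0.65 (permutation p = 0.0237, adjusted over the 10 lists 0.237, n = 12) and rho = 0.81 (permutation p = 0.0037, adjusted 0.037). With chip means removed r was 0.36, and without ethanol 4 and control 1 it was 0.51, beside 0.56 for astrocyte and 0.52 for choroid plexus markers. The rank relation thus passed adjustment and the linear one did not. Both used deviations that still hold each group's shift between the chips, and the differences on each chip took part in choosing the gene. With chip means removed neither was tested, so nothing independent of that choice is read from the rank relation.

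The sample lowest on the brightest Them6 probe, ethanol 4, also had the lowest level of oligodendrocyte markers. The highest oligodendrocyte levels, in ethanol 3 and control 4, came with 12.38 and 12.70 on that probe, neither the highest of its group. The part of these cells in the Them6 difference was not tested. For the other 9 lists the adjusted permutation p was at least 0.274 for r and at least 0.075 for rho. The mean level of striatal projection neuron markers was 12.41 ± 0.16 in ethanol-exposed samples and 12.45 ± 0.07 in controls, with 7 of 10 lower.

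**Figure D5:**
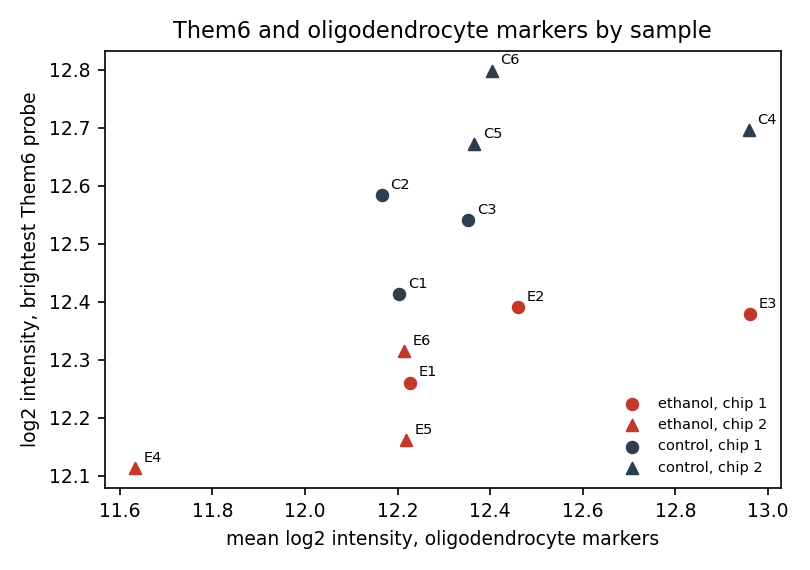
Log2 intensity of the brightest Them6 probe against the mean log2 intensity of 8 oligodendrocyte markers in each sample, with E for ethanol-exposed samples and C for controls, circles for chip 1 and triangles for chip 2. E4 is lowest and E3 and C4 are highest in the markers, and all ethanol-exposed samples lie below all controls in Them6, by which the gene was chosen. The part of these cells in the Them6 difference was not tested.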

How the data were processed

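Per the file headers, the deposited raw table holds a detection p-value and a linear intensity for each probe and array, with no normalization between arrays. The authors' own normalized intensities, linear as well, have medians of 144.9 to 145 on all arrays. The submitters' processing notes name GenomeStudio 1.9.0, and the sources used here give no background setting.

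The neqc method of limma 3.58.1 (R 4.3.3) removed background by way of the detection p-values, added an offset of 16, equalised the arrays' quantiles and took log2. Probes with detection p under 0.05 on at least 6 arrays were tested, with lmFit and eBayes over all 12 arrays, without covariates, and Benjamini-Hochberg adjustment over all tested probes. Differences are log2 ethanol minus control. The offset makes differences of dim probes smaller. Arrays give no molecule counts, and their number limits the precision. The fit and the permutations were tested on simulated data. No array was a copy of another, the closest pair having a root mean square difference of 0.272 (log2).

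Platform symbols were checked through Entrez identifiers against RefSeq names, and 0 changed. The brightest tested probe stood for a gene in lists, and list members were named where their p was among the 3 smallest. Named neighbours were all tested ones, and like probes were the 5 with the highest and the 5 with the lowest r. The gene, the lists and the rules were chosen with earlier results of these data known. No coordinates are given, since no build is stated for the arrays, and no sequence of Them6 was used here. As a check of the labels, the 4 Xist probes were detected on 0 arrays and Eif2s3y and Kdm5d on 12.

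Alternatives were no background correction, offsets of 50 and 0, median scaling, cyclic loess, the authors' table, other filters, chip or replicate number as a block, trend and robust moderation, array weights and leaving out arrays. The offset of 0, the removal of control 4 with ethanol 3 and ethanol 4, and the alternatives on each chip were added after seeing the data.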

Additional observations from a re-analysis of the deposited data

Results flagged for a closer look

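For every measure, the highest and the lowest of the 6 samples in a group were compared with their nearest neighbour, as a share of the group's range. The measures were the 3 Them6 probes, 10 marker lists and 6 neighbouring genes. Of 38 groups, 7 held a sample that stood apart, where chance marks about 1 in 20, and none of them was a Them6 probe or a neighbouring gene. Ethanol 3 was low in striatal projection neuron markers (12.10 against 12.44 to 12.54 in the other ethanol-exposed samples) and high in microglia markers (8.91 against 8.37 to 8.56). Ethanol 4 was high in cortical excitatory neuron markers (7.08 against 6.41 to 6.54). Control 4 was low in striatal projection neuron markers (12.31 against 12.45 to 12.50 in the other controls), high in oligodendrocyte markers (12.96 against 12.17 to 12.40) and high in ependyma markers (7.65 against 7.11 to 7.28). Control 2 was high in cortical excitatory neuron markers (7.46 against 6.53 to 6.74). The part of these samples' other cells in the Them6 values was not tested, and the Them6 differences without ethanol 3, ethanol 4 and control 4 stand with the alternatives.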

How the results depend on the processing

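Filters, blocks and moderation cannot change a probe's difference in this balanced design, and the sign of the Them6 difference chose the gene. Over the other alternatives it moved by less than 1 SD within groups. Leaving out 1 array can hardly move a difference that far, so nothing is read from this limit. The Them6 difference ran from −0.39 to −0.31 for the brightest probe, from −0.47 to −0.33 for the middle and from −0.50 to −0.19 for the dimmest. The smallest value of the dimmest probe came without background correction, −0.19 against −0.41 with it. Leaving out control 6 gave −0.31, −0.34 and −0.32 for the brightest, middle and dimmest probe. On chip 1, leaving out ethanol 1 gave −0.13, −0.10 and −0.13. With replicate number as a block, as with chip as a block, the differences stayed at −0.35, −0.43 and −0.41 in this balanced design. The replicate block moved the probes at an unadjusted p under 0.05 to 1425, against 1175 without it, and left 0 past adjustment, and the labels do not say that a number marks a shared litter or day. Deviations of same-numbered samples correlated at −0.14 to 0.28 over all tested probes, and 2 of 6 ethanol-exposed samples correlated best with the control of their number. No alternative gave a probe past adjustment. Without a filter 2420 of 45281 probes had an unadjusted p under 0.05. Separation of the groups on the brightest probe was lost with median scaling, where the highest ethanol-exposed sample lay 0.087 above the lowest control. Between the middle and the dimmest probe, r was 0.61 with median scaling (adjusted permutation p = 0.0744) and 0.69 with chip means removed (0.0616), no longer passing, and ran from 0.59 to 0.84 with each array left out, without passing when ethanol 2 or control 6 was left out. Between the brightest and the dimmest probe, r was 0.61 with cyclic loess and then passed (adjusted permutation p = 0.0488), and ran from 0.45 to 0.70 with each array left out, passing without ethanol 3, ethanol 5 or control 4. Apart from the 0.0616, these p-values came with chip means left in, so nothing is read from which of them passed. The median of the endoplasmic reticulum stress list was 0.018 when the probes of a gene were averaged. The causes were not tested. Of the values for other named genes, 492 of 497 moved by less than 1 SD, or 0.3 in r. Most of these leave out 1 array, which can hardly move a difference that far, so nothing is read from this count. A change of sign can also lie within the limit, as for Jrk, at −0.11 with all arrays and 0.10 without ethanol 3 and ethanol 4.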
